A study of Mus musculus with 6 samples.

Results

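The Th2 cytokine locus is a stretch of mouse chromosome 11 that holds the genes of the type 2 cytokines interleukin 4, 5 and 13, with unrelated genes between and beside them. Expression of 10 of its genes was compared between embryonic stem (ES) cells with and without Satb1. The genes were chosen by position: Gdf9, Kif3a, Il4, Il13, Rad50, Il5, Irf1, Slc22a5, Csf2 and Il3, given here in chromosome order. Each of the 10 was found among the 19938 genes of the array table by its symbol, 9 of them with 1 probe set and Irf1 with 2, of which the brighter was used. Between Gdf9 and Il3 lay 17 tested genes in all, and 47 tested genes made up the wider region, from the 15th tested gene before Gdf9 to the 15th after Il3.

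RNA came from 3 wild-type samples (replicates 1, 2 and 3, genotype given as control) and 3 samples of Satb1-/- cells, labelled as clones 1-1, 1-2 and 2-1. All 6 samples carried a HygroTK selection marker in the Oct4 locus, and all were cultured with LIF and serum on irradiated feeder cells for 3 days with hygromycin, which keeps cells that express Oct4. To clear feeders, the suspension was left to settle and its upper part was taken, and how many feeder cells stayed is not stated. Whether replicates were grown as separate cultures, and whether clones 1-1 and 1-2 share a parent, is not stated in the labels. The p-values therefore reflect only how far these arrays scatter, and some of that scatter may be technical.

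In T helper cells of type 2, Il4, Il5 and Il13 are switched on together, and a locus control region that serves them lies inside Rad50, the DNA repair gene between Il13 and Il5. SATB1 is a nuclear protein that binds AT-rich DNA and anchors chromatin loops; in activated Th2 cells it folds this locus into loops that bring the cytokine genes together. ES cells are not a usual source of these cytokines, so the locus was read here outside the cell type in which SATB1 is known to fold it.

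Expression was given as log2 values after RMA, which corrects background, normalizes the arrays to each other and summarises the probes of a set, and the differences given are knockout minus wild type on that scale, with the moderated standard error (SE) of limma. The threshold for calling a gene higher or lower was an adjusted p of 0.05 (Benjamini-Hochberg, all genes of the table); 184 genes were higher (0.923% of those tested) and 95 lower (0.476%), or 159 and 47 with each array centred on its median. Satb1 was lower in the cells that lack it, with values of 4.38, 4.47 and 4.57 against 5.12, 4.99 and 5.31 in wild type (difference -0.67, SE 0.12, limma adjusted p = 0.022). That call was lost on leaving out wild-type replicate 1, or 1 of the knockout arrays, at adjusted p values up to 0.128, and with arrays 1-1 and 1-2 averaged into 1 sample (adjusted p = 0.118). No source used here states if its probes fall inside the deletion. Because RNA was taken from bulk cultures, a change in the number of expressing cells and a change in RNA per cell cannot be told apart.

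The DNA before the start of 4 of the genes is printed because the results turn on them: Kif3a was the member that passed the test, Il4 is the tested gene next to it, Il13 had knockout values below the wild-type values, and Irf1 is the active regulator gene beyond Il5. Each sequence is the 250 bases before the RefSeq transcription start (assembly GRCm38.p6), 5′ to 3′ on the gene's own strand, and for genes with more than 1 start the most upstream was taken. The Kif3a sequence is chr11:53567119-53567368 (plus strand), that of Il4 chr11:53618666-53618915 (minus strand), that of Il13 chr11:53634703-53634952 (minus strand) and that of Irf1 chr11:53769764-53770013 (plus strand). Capitals mark GGAAA on either strand, the core of sites for NFAT and related factors that drive cytokine genes, and TTCNNNGAA, the form of a STAT site; the pair can overlap.
Kif3a: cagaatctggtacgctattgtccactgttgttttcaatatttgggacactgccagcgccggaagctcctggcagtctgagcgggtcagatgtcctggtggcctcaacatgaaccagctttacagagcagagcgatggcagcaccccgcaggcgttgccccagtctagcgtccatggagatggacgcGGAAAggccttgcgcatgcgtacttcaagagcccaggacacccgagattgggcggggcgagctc
Il4: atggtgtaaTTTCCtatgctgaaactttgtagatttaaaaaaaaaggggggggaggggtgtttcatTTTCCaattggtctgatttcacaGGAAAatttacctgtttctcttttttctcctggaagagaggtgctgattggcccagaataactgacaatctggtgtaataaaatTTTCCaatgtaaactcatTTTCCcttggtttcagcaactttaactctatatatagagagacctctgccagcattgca
Il13: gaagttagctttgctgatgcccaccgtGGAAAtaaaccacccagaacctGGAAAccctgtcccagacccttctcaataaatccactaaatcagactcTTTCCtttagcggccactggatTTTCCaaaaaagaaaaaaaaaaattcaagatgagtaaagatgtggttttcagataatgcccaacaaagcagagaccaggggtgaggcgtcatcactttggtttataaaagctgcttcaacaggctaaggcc
Irf1: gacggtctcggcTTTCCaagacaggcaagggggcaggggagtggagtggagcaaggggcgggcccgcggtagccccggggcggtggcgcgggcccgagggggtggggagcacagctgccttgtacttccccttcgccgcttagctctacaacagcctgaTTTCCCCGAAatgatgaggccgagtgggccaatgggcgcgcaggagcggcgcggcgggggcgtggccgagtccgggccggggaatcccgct

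The promoters fall into kinds that can be read from their letters. A and T made up 62.4% of the bases in Il4 and in Il5, 56.8% in Il13, 50.0% in Il3, 44.8% in Csf2, 41.2% in Kif3a, 28.8% in Irf1 and 26.4% in Slc22a5. The Il4 window held no CG dinucleotide and that of Il13 held 3, while Kif3a had 15, Irf1 25 and Slc22a5 30; the median of the 32851 promoter windows of this length was 6. The core GGAAA occurred 5 times in Il4, 4 times in Il13, 2 times each in Il5, Csf2 and Irf1, 1 time each in Il3 and Kif3a and not in Slc22a5, where 55.6% of all windows held at least 1. TTCNNNGAA was found in Irf1 alone among these 8 genes, and 7.02% of all windows held it. These matches describe the letters only, and no binding was measured.

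Of the 10 locus genes 1 was higher in the knockout arrays and 0 were lower; over all genes these shares were 0.923% and 0.476%. At an unadjusted p under 0.05, 2 were higher (Kif3a and Gdf9) and 1 lower (Il13), beside 5.92% and 4.55% of all genes. The higher gene was Kif3a, which encodes a motor subunit of kinesin-2, the motor that carries cargo along microtubules and into cilia. Its wild-type values were 6.34, 6.85 and 6.46 and its knockout values 7.17, 7.21 and 7.22. All knockout arrays stood above all wild-type arrays, as did those of 8.18% of the genes tested. Wild-type replicate 2 came nearest to the knockout arrays. The means were 6.55 ± 0.27 and 7.20 ± 0.024 (SD, n = 3 each), a difference of 0.65 (SE 0.14, 95% interval 0.35 to 0.95, limma adjusted p = 0.0483) or a fold of 1.57.

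The rise of Kif3a kept its direction in each of the 14 alternative settings run, but passed the threshold in only 5 of them. Leaving out 1 array at a time gave differences of 0.55 to 0.80. The call was lost without wild-type replicate 1 (0.55, adjusted p = 0.13), wild-type replicate 3 (0.61, adjusted p = 0.0587), knockout replicate 1-1 (0.67, adjusted p = 0.179), 1-2 (0.65, adjusted p = 0.197) or 2-1 (0.64, adjusted p = 0.229). Without wild-type replicate 2 the adjusted p was 0.0118. With knockout arrays 1-1 and 1-2 averaged into 1 sample it was 0.191, and under that setting Uqcrq, Skp1, 9530068E07Rik, Anxa6, Cpt1a, Esrrb and Gata2, described further on, also lost their calls.

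Gdf9, the growth factor gene of the oocyte, lies before Kif3a and was dim. It read 4.38, 3.94 and 3.97 in wild type and 4.31, 4.50 and 4.50 in knockout. The difference was 0.34 (SE 0.14, 95% interval 0.037 to 0.64) and missed the threshold (limma adjusted p = 0.394). The groups overlapped, since wild-type replicate 1 lay above knockout replicate 1-1. Uqcrq, the tested gene next before Gdf9, which encodes a subunit of respiratory complex III, read 6.51, 6.37 and 6.87 in wild type and 7.20, 7.33 and 7.33 in knockout. It rose by 0.70 (SE 0.14, limma adjusted p = 0.0333), a call lost on leaving out wild-type replicate 1 or 2, or 1 of the knockout arrays, with adjusted p values up to 0.189.

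**Figure D1:**
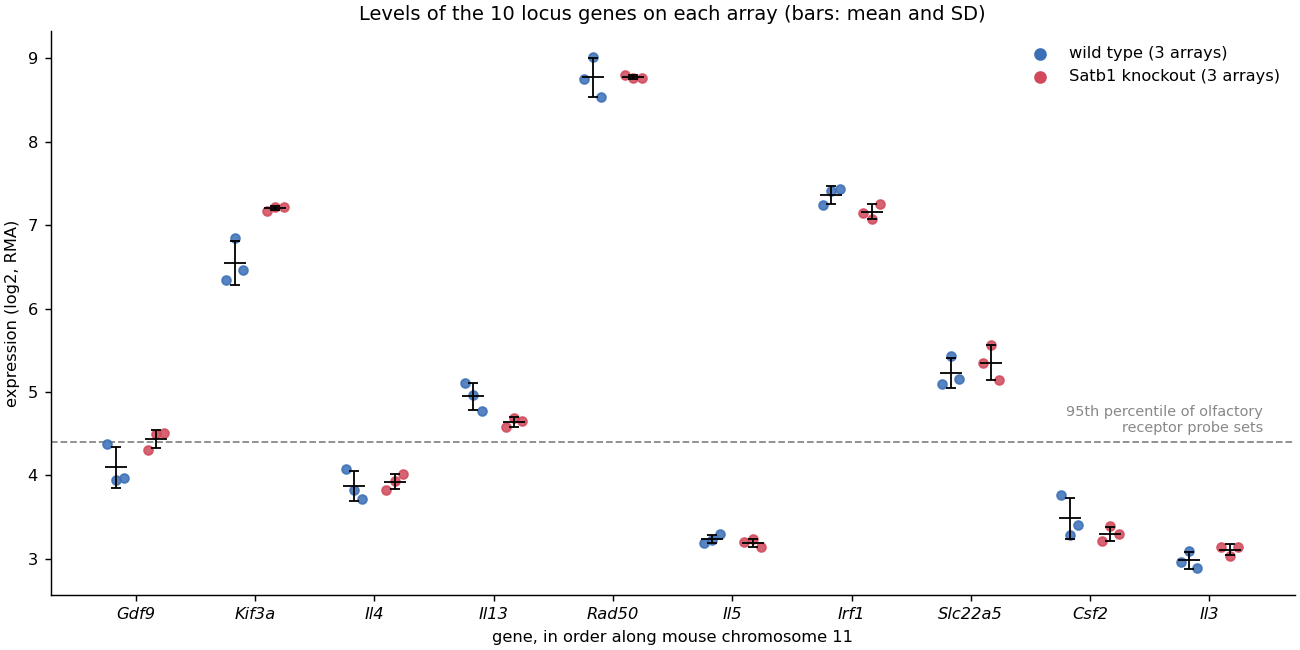
Expression (log2, RMA; vertical axis) of the 10 locus genes in chromosome order (horizontal axis) on each of the 3 wild-type (blue) and 3 knockout (red) arrays, with mean and SD in black and the 95th percentile of olfactory receptor probe sets (4.40) dashed. Kif3a is the gene whose knockout arrays all lie above the wild-type arrays, Il13 the gene whose knockout arrays all lie below them, and the other 8 overlap. Over all genes tested, the knockout arrays all lie above in 8.18% and all below in 6.97%.

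The cytokine genes of the locus were dim in both groups and none passed the test. As a guide to dimness, the probe sets of 1027 olfactory receptor genes, which are read by sensory neurons of the nose, had a median level of 3.17 and a 95th percentile of 4.40. Probe sets differ in how well they hybridise, so this sorts probe sets by brightness and not genes by transcript number. Il4, Il5, Csf2, Il3 and Gdf9 had means over the 6 arrays at or under that 95th percentile, while Il13 (4.79) lay above it. An RMA value at this level understates any difference, so these values do not show that a low transcript level is the same in both groups.

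Il4, the gene of the cytokine that directs Th2 differentiation, read 4.07, 3.82 and 3.72 in wild type and 3.83, 3.94 and 4.01 in knockout. The ranges overlapped, and the difference was 0.054 (SE 0.12, 95% interval -0.21 to 0.32, limma adjusted p = 0.953). Il5, the gene of the eosinophil growth factor, read 3.19, 3.23 and 3.29 against 3.20, 3.23 and 3.14, a difference of -0.048 (95% interval -0.27 to 0.17). The 6 values of Il5 lay within a narrower band than those of the other cytokine genes.

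Il13, whose product acts on epithelium and mucus production, had values of 5.11, 4.96 and 4.78 in wild type and 4.58, 4.69 and 4.65 in knockout. All knockout arrays lay below all wild-type arrays, as did those of 6.97% of the genes tested. The difference was -0.31 (SE 0.11, 95% interval -0.56 to -0.056). It missed the threshold (limma adjusted p = 0.331, unadjusted p = 0.0215), and leaving out 1 array gave differences from -0.40 to -0.23. Over all genes, 4.55% were lower at an unadjusted p under 0.05.

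At the other end of the locus lie Csf2, which encodes the growth factor GM-CSF of granulocytes and macrophages, and Il3, which encodes a growth factor of blood progenitors and mast cells. Csf2 read 3.76, 3.29 and 3.40 in wild type and 3.22, 3.39 and 3.30 in knockout, a difference of -0.18 (95% interval -0.48 to 0.12, limma adjusted p = 0.757). Wild-type replicate 1 was the high array, and the other 5 lay together. Il3 read 2.96, 3.09 and 2.89 against 3.15, 3.04 and 3.15, a difference of 0.13 (95% interval -0.10 to 0.36, limma adjusted p = 0.8). Over the 5 cytokine genes the median difference was -0.048, beside -0.0044 over all genes tested.

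Rad50, the gene that houses the locus control region, was brightly expressed and read alike in both groups. It encodes a subunit of the MRE11-RAD50-NBN complex, which holds and processes broken DNA ends. Its values were 8.75, 9.02 and 8.54 in wild type and 8.80, 8.76 and 8.76 in knockout, with the knockout arrays inside the range of the wild-type arrays. The difference was 0.0036 (SE 0.13, 95% interval -0.28 to 0.29, limma adjusted p = 0.997). Leaving out 1 array gave -0.11 to 0.13. For Kif3a the difference was 0.65 (95% interval 0.35 to 0.95), and the contrast between these genes was not tested.

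Irf1, a transcription factor gene of the interferon response, read 7.24, 7.41 and 7.44 in wild type and 7.15, 7.08 and 7.25 in knockout. Knockout replicate 2-1 lay above wild-type replicate 1, so the groups overlapped. The difference was -0.20 (SE 0.11, 95% interval -0.44 to 0.041, limma adjusted p = 0.608), and its second, dimmer probe set gave -0.089 (SE 0.14). Slc22a5, which encodes the OCTN2 transporter that brings carnitine into cells, read 5.09, 5.44 and 5.15 against 5.35, 5.56 and 5.14. The difference was 0.12 (SE 0.14, 95% interval -0.18 to 0.43, limma adjusted p = 0.875), with groups that overlapped over most of their range. Leaving out 1 array gave 0.018 (without knockout replicate 1-2) to 0.23 (without wild-type replicate 2).

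Read in chromosome order, the differences were mostly above 0 up to Kif3a and lay around 0 from Il4 on. The division at Kif3a was chosen after the values were seen and is given as a description, without a test. Of the 20 region genes up to and including Kif3a, 19 had a difference above 0 and 5 were higher, 0 lower; the median difference was 0.46. Of the 27 from Il4 on, 15 had a difference above 0 and 1 was higher, 0 lower; the median was 0.0086. Chromosome 11 as a whole had a median of -0.010 over 1563 tested genes, of which 738 had a difference above 0, with 25 higher and 3 lower. Over all 19938 genes tested, 9679 had a difference above 0, with 184 higher and 95 lower.

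**Figure D2:**
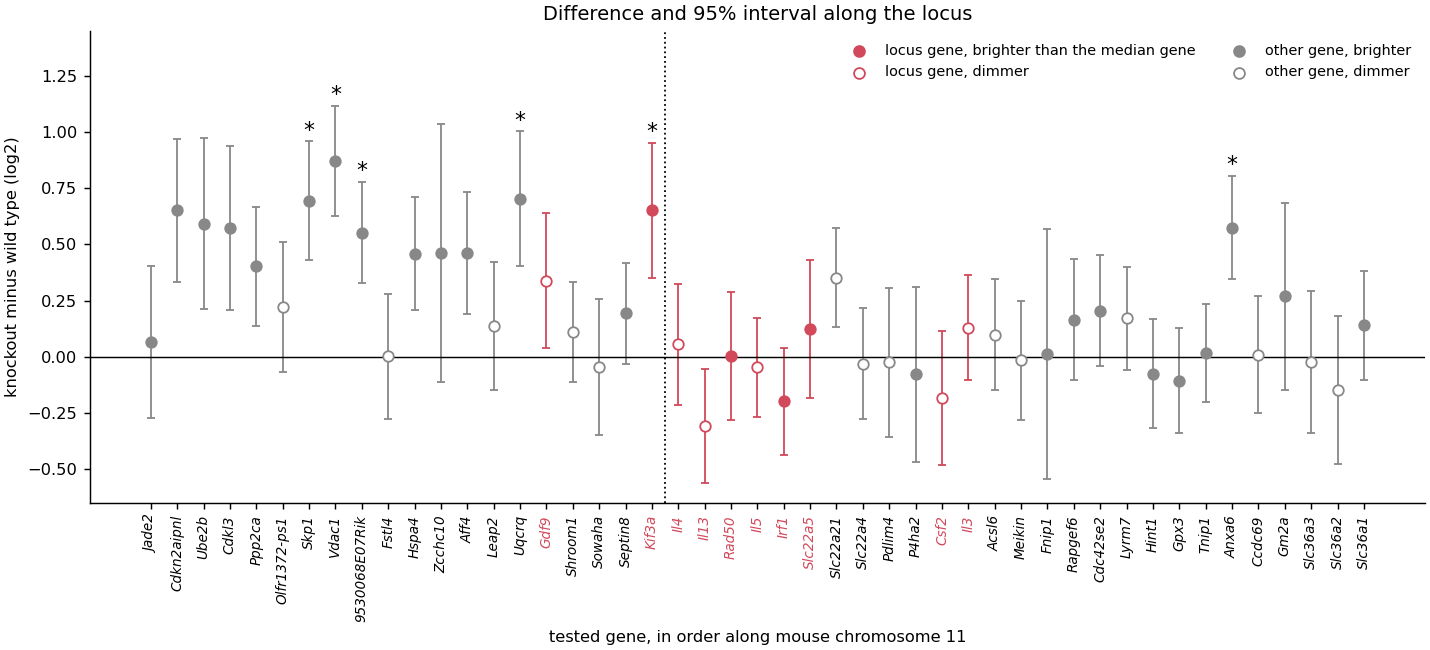
Knockout minus wild type (log2; vertical axis) with 95% interval for the 47 tested genes of the region in chromosome order (horizontal axis); locus genes in red, filled points brighter than the median gene, asterisks at a limma adjusted p under 0.05, dotted line after Kif3a. The 14 brighter genes up to Kif3a all lie above 0 (median 0.56), and the 13 brighter genes from Il4 on lie around 0 (median 0.019), apart from Anxa6. Over all brighter genes, 5375 of 9969 lie above 0.

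Brightness differed along the region, so the brighter genes were also read alone. The 14 genes up to Kif3a that were brighter than the median gene had a median difference of 0.56 and 14 of 14 were above 0. The 13 brighter genes from Il4 on had a median of 0.019 and 9 of 13 were above 0. Over all genes brighter than the median gene, the median was 0.019 and 5375 of 9969 were above 0. For those of chromosome 11 the median was 0.016 and 482 of 902 were above 0. Dimmer genes showed a smaller contrast, with medians of 0.12 over 6 genes and -0.021 over 14. No gene brighter than the median lies between Kif3a and Rad50 in the tested order, since Il4 and Il13 are both dimmer.

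Read array by array, the contrast was present in each knockout array. The division and the called member Kif3a were both picked from these same arrays. The values below therefore describe the arrays and are no separate support. Relative to the mean of the wild-type arrays, the median of the 14 brighter genes up to Kif3a was 0.56, 0.44 and 0.63 in knockout arrays 1-1, 1-2 and 2-1, and -0.13, -0.041 and 0.12 in wild-type replicates 1, 2 and 3. For the 13 brighter genes from Il4 on it was 0.028, 0.022 and 0.0019 in the knockout arrays and -0.073, 0.047 and -0.022 in wild type. Kif3a minus Rad50 within each array, whose absolute size has no meaning across probe sets, was -2.41, -2.17 and -2.08 in wild type and -1.62, -1.55 and -1.54 in knockout. The knockout arrays lay closer to each other than the wild-type arrays did.

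**Figure D3:**
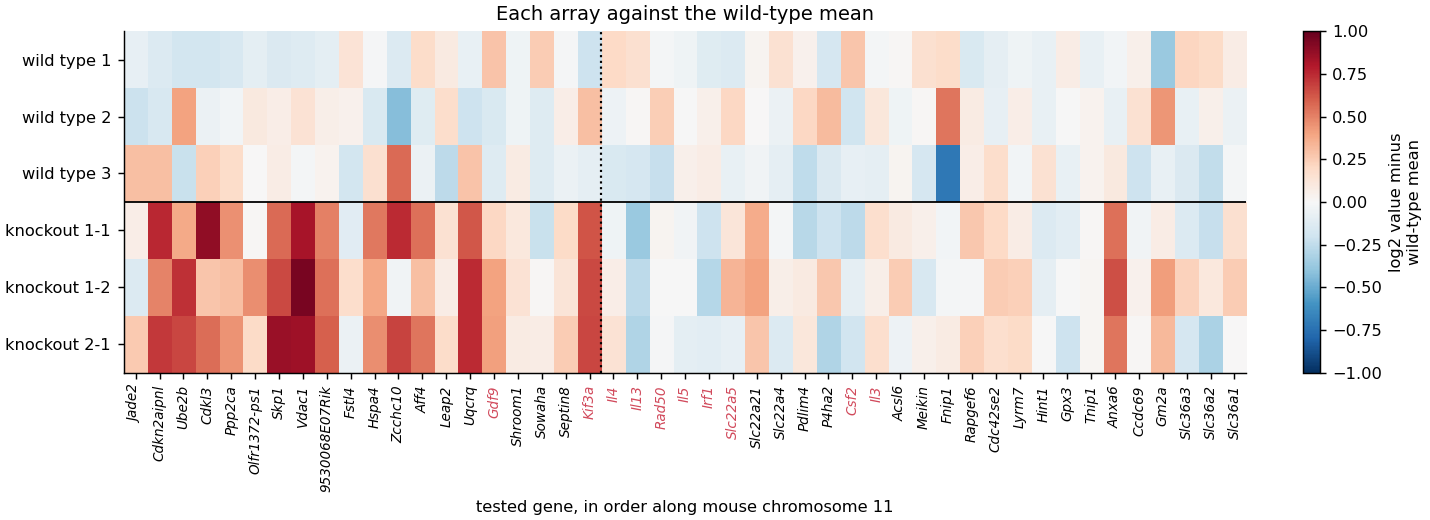
Each array's log2 value minus the wild-type mean (colour scale, red above and blue below) for the 47 region genes in chromosome order; rows are the 3 wild-type and 3 knockout arrays, and the dotted line follows Kif3a. Red predominates in all 3 knockout arrays up to Kif3a, where their brighter-gene medians are 0.44 to 0.63, and colours are mostly paler and mixed from Il4 on. There Anxa6 and, more faintly, Slc22a21 are red and Il13 is blue in all 3 knockout arrays. Other genes there also keep 1 colour in all 3, more palely, among them Cdc42se2 and Lyrm7 (red) and Irf1 and Csf2 (blue). Fnip1 varies most among the wild-type arrays.

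The other genes called on the raised side were Vdac1, which encodes the main channel of the outer mitochondrial membrane (0.87, SE 0.11, limma adjusted p = 0.0034), Skp1, which encodes a core subunit of SCF ubiquitin ligases (0.70, adjusted p = 0.0182), 9530068E07Rik (0.55, adjusted p = 0.0274) and Uqcrq. Vdac1 kept its call without any one array (adjusted p up to 0.0319), whereas Skp1 and 9530068E07Rik lost theirs on leaving out wild-type replicate 1, or 1 of the knockout arrays. Cdkn2aipnl (0.65), the chaperone gene Hspa4 (0.46) and Aff4 (0.46), which encodes a scaffold of the super elongation complex, had groups that did not overlap. Nor did those of Cdkl3, Ppp2ca and Septin8, given below. In all, 11 of the 20 region genes up to Kif3a had knockout arrays above all wild-type arrays, as had 8.18% of all genes. That division was chosen after the values were seen. Cdkn2aipnl, Hspa4 and Aff4 missed the threshold (limma adjusted p = 0.058, 0.0935 and 0.122). Without wild-type replicate 3, Cdkn2aipnl (0.80, adjusted p = 0.00493) and Hspa4 (0.54, adjusted p = 0.0344) passed it. With array weights Cdkn2aipnl, Hspa4 and Aff4 passed (adjusted p = 0.00597, 0.0154 and 0.0226), and Cdkn2aipnl also did after a second quantile normalization (0.0247) and among the genes above the median level (0.0454). Ube2b (0.59), Cdkl3 (0.57), Zcchc10 (0.46) and Ppp2ca (0.40), all before Gdf9, missed the threshold as well (limma adjusted p = 0.168, 0.164, 0.627 and 0.18). Leap2 (0.14), also before Gdf9, missed it too. Between Gdf9 and Kif3a, Shroom1 (0.11) and Septin8 (0.19), a septin gene of the cytoskeleton, did not pass either. Sowaha, the other tested gene between them, had a difference of -0.047, the only value below 0 among the 20 region genes up to Kif3a.

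Beyond Il4, the called gene was Anxa6, which encodes a membrane-binding annexin. Its brighter probe set read 0.58 (SE 0.10, limma adjusted p = 0.025) but its second probe set read -0.055, and the mean of both gave 0.26 (adjusted p = 0.412). The call of the brighter probe set was also lost on leaving out wild-type replicate 1 or 2, or 1 of the knockout arrays (adjusted p values up to 0.149). Slc22a21 and Slc22a4, the paralogues of Slc22a5 beside it, read unequally. Slc22a21 had 4.74, 4.72 and 4.67 in wild type and 5.08, 5.11 and 4.99 in knockout (difference 0.35, SE 0.10, limma adjusted p = 0.154). Slc22a4 differed by -0.030 (SE 0.11), with overlapping groups. Past Il3, Acsl6 (0.10), Rapgef6 (0.16), Cdc42se2 (0.21) and Hint1 (-0.077) missed the threshold.

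Over the 6 arrays, the tested genes whose values ran most closely with those of Kif3a were Cblb on chromosome 16 (Pearson's r 0.997), Papolg on chromosome 11 (0.996) and Hscb on chromosome 5 (0.994). These are the extremes of 19938 genes over 6 points that fall into the 2 groups of the design, and they are given as a description. Papolg lies on the same chromosome but outside the region.

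The genes that work with the products of the locus were read as lists beside the members. All genes tested had a median difference of -0.0044, with 0.923% higher and 0.476% lower. At an unadjusted p under 0.05, 5.92% of all genes were higher and 4.55% lower. These shares are the background for the counts of every list below. The list of cytokine receptors and their JAK and STAT signalling genes had 14 measured members, of which 0 were higher and 0 lower by limma, with 1 at an unadjusted p under 0.05, and a median difference of 0.046. The largest differences in it were those of Stat6, the transcription factor gene downstream of interleukin 4 (0.30, adjusted p = 0.414), Csf2ra (-0.23), Jak2 (0.21) and Jak1 (0.20). Il4ra, the receptor gene for interleukins 4 and 13, differed by -0.046 (SE 0.11). Among 15 measured regulators of the locus in T helper cells, Th2 or other, 1 was lower and 0 were higher, and that 1 was Satb1 itself. Of the 15, 4 had an unadjusted p under 0.05, and the median was -0.081. Ctcf, which encodes the insulator protein, read 8.88, 9.02 and 9.32 in wild type and 8.80, 8.51 and 8.76 in knockout (difference -0.38, limma adjusted p = 0.308). The SATB1-interacting remodeller gene Chd4 differed by 0.26 (adjusted p = 0.393) and Gata3, the master regulator of Th2 cells, by -0.16 (SE 0.23).

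None of the 23 measured interferon and IRF1 response genes passed the threshold, with 1 at an unadjusted p under 0.05 and a median of -0.011. The immunoproteasome genes Psmb8 (-0.31) and Psmb10 (-0.26) and the receptor genes Ifnar1 (0.28) and Ifngr2 (0.26) had differences in opposite directions. Of the 11 measured RAD50 partners 0 were higher and 0 lower by limma, with 2 at an unadjusted p under 0.05 and a median of -0.030. The other subunits of the complex differed by -0.082 (Mre11a, SE 0.11) and -0.10 (Nbn, SE 0.13), and the kinase genes Atm and Atr by 0.29 and 0.27. Brca1 (0.27) and Trp53bp1 (-0.19) also missed the threshold.

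Genes of kinesin-2 and ciliary transport, the partners of KIF3A, had differences above 0 in 14 of 16 measured members, with a median of 0.18. Over the genes brighter than the median gene, 5375 of 9969 were above 0, with a median of 0.019. In the list 0 passed the threshold by limma in either direction. An unadjusted p under 0.05 was found for 2 of the 16, beside 5.92% higher and 4.55% lower over all genes. The motor partner Kif3b differed by 0.12 (SE 0.13) and the kinesin-2 adaptor gene Kifap3 by 0.019 (SE 0.12). The intraflagellar transport genes Ift140 (0.40, limma adjusted p = 0.221), Ift74 (0.34), Ift122 (0.29) and Ift57 (0.28) had the largest differences, and Ift74 gained a call once wild-type replicate 3 was left out (0.56, adjusted p = 0.0349). Ift140, Ift122 and Ift81 (0.15) had groups that did not overlap, as had 8.18% of all genes with the knockout arrays above.

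In the carnitine list, 1 of 10 measured genes was higher and 0 were lower, beside 0.923% and 0.476% of all genes. An unadjusted p under 0.05 was found for 4 of the 10, beside 2089 of all 19938 genes, and the list median was 0.13. Slc22a21 and Slc22a4, region genes given above, are in this list, and Slc22a21 is among the 4. The higher gene was Cpt1a, the carnitine palmitoyltransferase that commits fatty acids to mitochondrial oxidation. It read 6.44, 7.20 and 6.69 in wild type and 7.51, 7.75 and 7.60 in knockout. The difference was 0.84 (SE 0.17, limma adjusted p = 0.0475), and it lost the call on leaving out each array in turn except wild-type replicate 2 (adjusted p values up to 0.218). With all arrays kept, Cpt1a also lost it with each array centred (limma adjusted p = 0.0609), over all probe sets (0.0549), with array weights (0.0505) and with the floor on dim values (0.34). Slc25a20, the carnitine carrier of the inner mitochondrial membrane, read 7.20, 7.61 and 8.12 against 8.43, 8.49 and 8.57 and just missed the threshold (0.85, SE 0.19, adjusted p = 0.0654), which it passed without wild-type replicate 3 (1.09, adjusted p = 0.00148), after a second quantile normalization (0.0271), among the genes above the median level (0.0481) and with array weights (0.00492). Crot (0.31) and Aldh9a1 (-0.24) missed it.

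**Figure D4:**
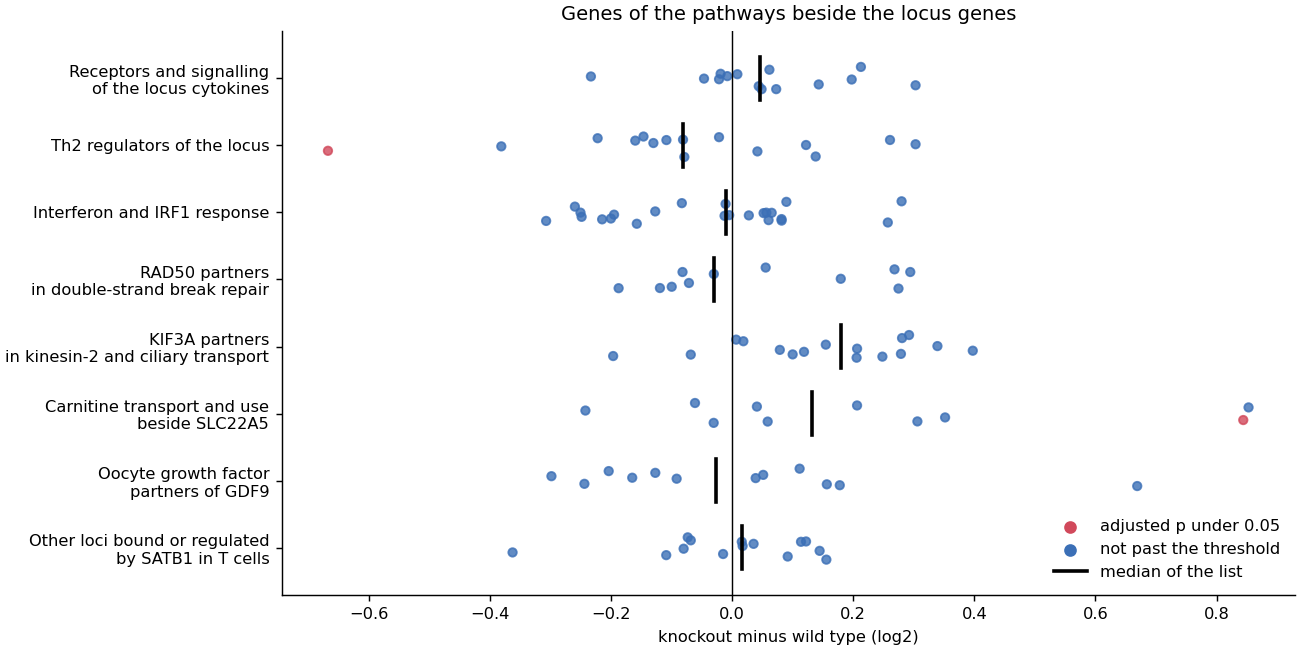
Knockout minus wild type (log2; horizontal axis) of each measured gene in the 8 lists of partners and related genes (vertical axis), with the list median as a black bar and genes at a limma adjusted p under 0.05 in red. The red points are Satb1 itself (-0.67) and Cpt1a (0.84), and the list medians lie between -0.081 and 0.18.

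Among 12 partners of GDF9 in oocyte growth, 0 passed in either direction by limma, 3 had an unadjusted p under 0.05, and the median was -0.026. Kit, the receptor tyrosine kinase gene, differed by 0.67 (SE 0.24, adjusted p = 0.292) and gained a call once wild-type replicate 2 was left out (0.99, adjusted p = 0.0156). The oocyte genes Bmp15 (-0.30), Lhx8 (-0.24) and Nobox (-0.20) had values in the range of the olfactory receptor probe sets. Of 14 other genes that SATB1 binds or regulates in T cells, 0 passed and 0 had an unadjusted p under 0.05, with a median of 0.017. Myc (-0.36, SE 0.33) and Zbtb7b (0.16) had the largest differences in that list.

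The samples were checked against markers of the cells they could hold. As background for the counts, 0.923% of all genes were higher and 0.476% lower, and 2089 of 19938 had an unadjusted p under 0.05. The ES cell markers were bright, with levels from 7.36 to 11.6 over 10 genes; 2 were higher (Nanog, 1.09, and Esrrb, 0.56), 0 lower, and 5 had an unadjusted p under 0.05. Esrrb, and Gata2 of the myeloid list given below, lost their calls on leaving out wild-type replicate 1, or 1 of the knockout arrays (adjusted p values up to 0.209 and 0.193). Both also lost them with each array centred (limma adjusted p = 0.0542 and 0.0547) and with the floor on dim values (0.169 and 0.232). Pou5f1, the Oct4 gene, differed by -0.39 (limma adjusted p = 0.309) and Sox2 by 0.30 (adjusted p = 0.316). The 11 measured T cell markers had levels from 2.64 to 5.12, and 0 of 11 passed the threshold, with 0 at an unadjusted p under 0.05. Their summed linear signal was 179 to 215 in wild type and 195 to 215 in knockout. In the list of mast cell and myeloid markers 1 of 10 was lower, Gata2 (-0.67, limma adjusted p = 0.0351), a factor gene that other cells also express. Of the 10, 6 had a difference above 0, and the list median was 0.018. The summed signal was 149 to 165 in wild type and 135 to 147 in knockout. Gata2 was the brightest gene of the list (level 5.35) and so weighed most in that sum. Feeder fibroblast markers had differences above 0 in 12 of 12 measured genes, beside 9679 of all 19938 genes and 5375 of the 9969 brighter than the median gene. Their median was 0.20, with 0 past the threshold by limma and 4 at an unadjusted p under 0.05. Thy1 differed by 0.62. The summed signal of the feeder markers was 982 to 1427 in wild type and 1359 to 1581 in knockout, and the part of feeder RNA in the rise of Kif3a was not tested.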

How the data were processed

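Total RNA of 6 mouse ES cell samples was hybridised to 1-colour arrays. The deposited values are log2 expression, 1 per probe set and array, which the authors made with RMA, per the submitters' processing notes; no source used here gives its version or settings. Arrays have no read depth, and their number limits the precision. Of 35557 probe sets, those with 1 symbol in the platform annotation (21789) were used, with the brightest kept per gene. Gene order came from RefSeq genes of GRCm38.p6 (19856 of 19938 genes matched by Entrez ID). The array's build is not given, so coordinates are printed only for promoters, from the RefSeq sequence table, which held 8 of the 10 genes.

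The test was limma's moderated test (lmFit, then eBayes; limma 3.58.1 in R 4.3.3), two-sided, without covariates and with dim genes kept. Tested on simulated data with 3 arrays a group and 19938 genes, it found 23% of changes of 0.5 log2 units, 78.8% of 1 and 98.8% of 2, and 4.58% of calls were false. The simulated noise was normal and independent between genes and arrays, with no array effects. The real arrays scattered unequally around the means of their groups, with array weights from 0.445 to 1.985. These rates therefore hold for the simulation and do not give the share of false calls in the real data. The alternatives were a second quantile normalization, centring, a filter and a floor on dim values, all or averaged probe sets, array weights, a mean of knockout arrays 1-1 and 1-2, a stricter threshold and leaving out each array.

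By rule the text names Satb1, the members, region genes, the 3 genes that run most closely with a called member, and of each list the genes past the threshold and up to 4 others. Il4ra, Gata3, Kif3b, Kifap3, Mre11a and Nbn were named outside it, for their roles, and Ift81 because its groups did not overlap. Members and lists were chosen with earlier results of these data known.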

Additional observations from a re-analysis of the deposited data

How the results depend on the processing

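The count of locus genes higher in knockout (1, Kif3a) was 0 with each array centred, with a floor on dim values, over all probe sets, with knockout arrays 1-1 and 1-2 averaged into 1 sample and at an adjusted p under 0.01, and 0 to 1 when 1 array was left out; the count lower stayed 0 in every setting run. In the whole table, the 184 higher and 95 lower calls became 10 and 2 with the floor, which left 4019 genes with no spread, 373 and 235 with array weights, 90 and 27 with 1-1 and 1-2 averaged, and 86 and 23 at an adjusted p under 0.01. The lower count was 183 after a second quantile normalization and 47 with each array centred. Without any one array, between 74 and 356 genes were called higher and between 19 and 124 lower. With 1-1 and 1-2 averaged, Satb1, Kif3a, Uqcrq, Skp1, 9530068E07Rik, Anxa6, Cpt1a, Esrrb and Gata2 kept their direction and lost their calls (adjusted p values from 0.0663 for Skp1 to 0.191 for Kif3a), while Vdac1 (0.029) and Nanog (0.012) kept theirs. Some of these settings had fewer samples or a stricter threshold, and the cause of the shifts was not tested.

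Some differences changed sign, with no call on either side; most were near 0, but those of Myc (-0.36) and Gata3 (-0.16) were not, and both turned without wild-type replicate 3. Rad50 was -0.023 after quantile normalization and -0.12 with array weights, Slc22a5 -0.019 with array weights, Slc22a4 0.0057 after quantile normalization, and Kifap3 -0.033 and -0.025 in the same 2 settings. Leaving out 1 array gave -0.11 to 0.13 for Rad50, -0.021 to 0.16 for Il4, -0.076 to 0.044 for Slc22a4, -0.049 to 0.11 for Kifap3, -0.37 to 0.12 for Gata3, -0.18 to 0.0076 for Nbn and -0.69 to 0.089 for Myc. Under the floor Il5, Csf2 and Il3 had no spread and gave no value. No paired analysis was possible because the groups share no replicate numbers.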
